A study of Mus musculus with 12 samples.

Results

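Interferons are cytokines that put cells into an antiviral state. Binding of type I or type III interferon to its receptor activates the kinases Jak1 and Tyk2, and their signal leads to a complex with Stat2 and Irf9 that binds interferon-stimulated response elements in the promoters of effector genes. The effector proteins then act on viral RNA and on infected cells, and in the lung they are known mainly from airway epithelium and macrophages answering respiratory viruses. N6-methyladenosine (m6A) is a methyl mark on adenosines of mRNA that is written by a methyltransferase complex and lies most often in the 3' UTR and near stop codons. The interferon-induced effector genes described here are 10 genes, Isg15, Ifit1, Ifit2, Ifit3, Oas2, Oas3, Oasl2, Rsad2, Mx1 and Mx2, which were chosen by name. A peak was taken as theirs when the deposited annotation assigned it to the gene or when it had been called on the gene. By this rule 13 of the 27292 peaks in OVA lungs and 16 of the 26102 peaks in PBS lungs belonged to them.

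Lung tissue came from female BALB/c mice that were 6 to 8 weeks old. The OVA group modelled allergic asthma: 3 mice had been sensitized by injection of ovalbumin with aluminum hydroxide on days 0 and 7, then exposed to an aerosol of 3% ovalbumin for 30 min a day from day 14 to day 20. The 3 PBS mice were controls that were given phosphate-buffered saline instead, and lungs of both groups were taken on day 21 after a methacholine provocation. From each mouse, fragmented RNA enriched with an antibody against m6A (IP) and the same RNA without enrichment (input) were sequenced, and the authors deposited 1 list of m6A peaks per group. Values given below for OVA lungs and PBS lungs are those of the lists, which hold no values of single mice and no read counts, so the depth behind a peak is unknown, no difference between the lists has a replicate check and none was tested here.

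In both lists, 7 of the 10 genes carried peaks, and they were the same 7: Isg15, Ifit1, Ifit2, Ifit3, Oas3, Oasl2 and Rsad2. No peak was listed for Oas2, Mx1 or Mx2 in either group. None of the genes thus had a peak in the OVA list alone or in the PBS list alone, which was the case for 10.8% and 7.22% of the 14988 genes on which peaks were called. This depends on the rule: by assigned gene alone, 6 genes had an OVA peak, 5 a PBS peak and 5 both, with Rsad2 in the OVA list alone, and with protein-coding transcripts alone the numbers were 4, 5 and 4, with Oasl2 in the PBS list alone. Only 1 of the 13 OVA peaks (7.69%), on Rsad2, had no overlapping PBS peak, against 19.4% of all OVA peaks. Of the 16 PBS peaks, 2 (12.5%), both on Oasl2, had no overlapping OVA peak, against 14.5% of all PBS peaks. With so few peaks, neither share is read as different from that of its list. Overlap means at least 1 bp shared by the exonic blocks of both peaks. A peak needs enough RNA in the tissue to be called, and in whole lung fewer cells of a type and less RNA per cell cannot be told apart.

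The fold enrichment of a peak is the ratio of IP over input given by the authors' peak caller, and each value was ranked only within its own list. The median over the 13 OVA peaks was 5.28, beside 5.59 over all OVA peaks, and 6 of the 13 lay above the latter. Over the 16 PBS peaks the median was 5.80, beside 5.44 over all PBS peaks, and 9 of the 16 lay above it. With peaks of protein-coding transcripts alone, the median was 12.0 in OVA lungs and 6.13 in PBS lungs, beside 5.99 and 5.82 over all such peaks, so the OVA value depends on which transcripts are counted. In the OVA list the range ran from 1.78 on Oasl2 to 18.3 on Ifit3. In the PBS list it ran from 1.90 on Ifit2 to 21.2 on Isg15.

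**Figure D1:**
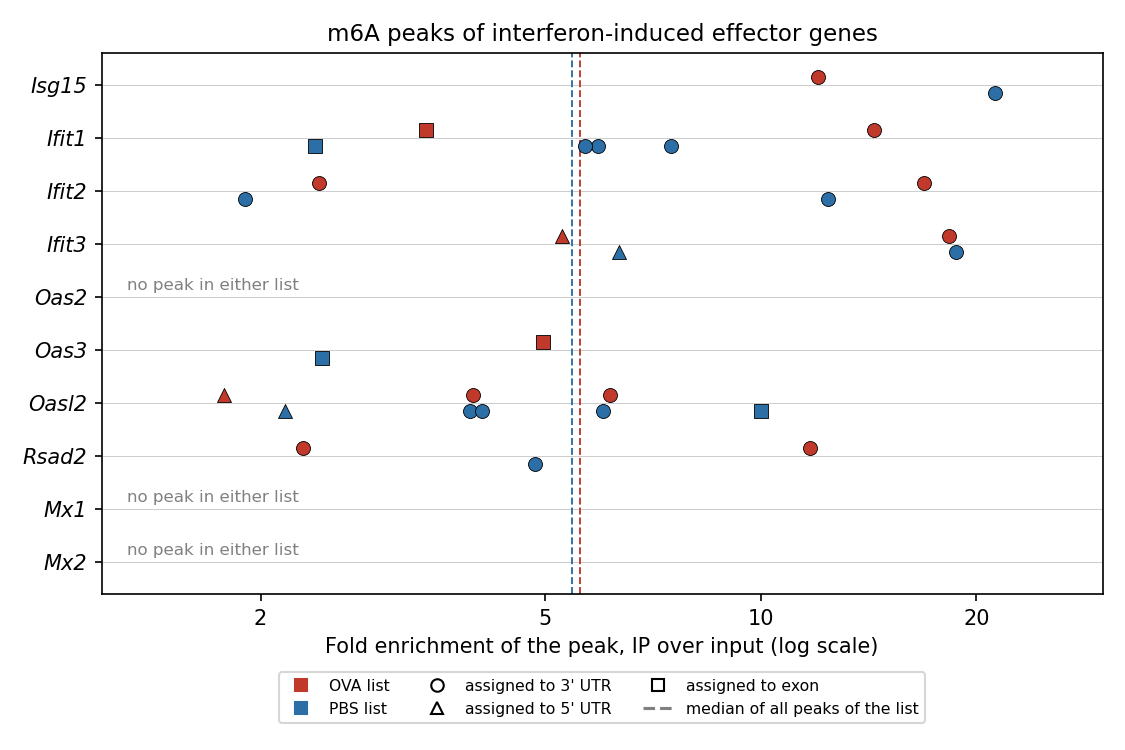
Fold enrichment of IP over input (x axis, log scale) of each peak of the 10 genes (y axis) in the OVA list (red) and the PBS one (blue), with the marker shape giving the region to which the peak was assigned and dashed lines giving the median of all peaks of each list (5.59 and 5.44). The highest points are peaks of Isg15, Ifit3, Ifit2 and Ifit1 assigned to the 3' UTR, and Oas2, Mx1 and Mx2 have no point.

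Isg15 encodes a small ubiquitin-like protein that is attached to other proteins and is also secreted. It had 1 peak in each list, on chromosome 4, with the region given as the 3' UTR and the assigned transcript as protein-coding. The OVA peak, at chr4:156199514-156199982 (GRCm38), had a fold enrichment of 12.0, which was percentile 76.9 of its list. The PBS peak, at chr4:156199455-156199952, had a fold enrichment of 21.2, at percentile 94.3. The peaks shared 439 bp, and they ended 90 bp and 31 bp before the 3' end of the RefSeq gene. The peak with the lower fold enrichment had the stronger score, since the log10 of the p value was -191 in OVA lungs and -86.0 in PBS lungs.

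The Ifit genes lie in a cluster on chromosome 19 and encode proteins with tetratricopeptide repeats that bind RNA or each other. Ifit1 binds viral RNA whose cap lacks a methyl group, Ifit2 is associated with translation control through the initiation factor Eif3e, and Ifit3 forms complexes with its relatives. Together they held 6 of the 13 peaks in OVA lungs and 8 of the 16 in PBS lungs.

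On Ifit1, the OVA list had a peak in an exon with a fold enrichment of 3.40, at chr19:34647801-34648070. Its other peak, of 14.4, at chr19:34648130-34649830, was assigned to the 3' UTR. This peak ran over 1701 bp without a gap. In the PBS list the same stretch was divided into 3 peaks, which began at 34648189, 34649323 and 34649621, with fold enrichments of 7.49, 5.92 and 5.68. These PBS peaks covered 1435 bp of the OVA peak, or 84.4% of its length. The most distal of them ended exactly at the RefSeq end of the gene, at 34650009, while the OVA peak stopped 179 bp before it. The exonic peak was also present in PBS lungs, with a fold enrichment of 2.38. Ifit1 thus had 2 peaks in one list and 4 in the other although every one of them had a counterpart, and their summed exonic length was 1971 bp in OVA lungs and 1794 bp in PBS lungs.

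On Ifit2, both lists had a long peak assigned to the 3' UTR. It began at chr19:34570366 with a block of 5 bp, crossed an intron and continued in a second block. It ended at 34575160 in OVA lungs, with 2099 bp of exonic length, and at 34575220 in PBS lungs, with 2159 bp. Its fold enrichment was 16.9 in OVA lungs (percentile 87.9) and 12.4 in PBS lungs (percentile 80.1). These were the longest peaks of the gene set in both lists, and the log10 of their FDR was listed as minus infinity. How much of their length was coding sequence was not examined. A short second peak followed nearer the 3' end, with a fold enrichment of 2.41 in OVA lungs and 1.90 in PBS lungs. All 4 Ifit2 peaks had been called on Ifit2 but were assigned to Ifit3, whose annotated start lay 8371 bp and 7532 bp downstream of the OVA peaks. Read by assigned gene alone, Ifit2 would have had no peak.

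On Ifit3, the peak assigned to the 3' UTR had a fold enrichment of 18.3 at chr19:34588022-34588731 in OVA lungs. In PBS lungs it had 18.7 at chr19:34587992-34588731, so both ended at the same base, 251 bp before the RefSeq end. They stood at percentiles 89.8 and 91.8. The log10 of the p value was -797 and -1150, the strongest scores among the peaks of the 10 genes in either list. A second peak was assigned to the 5' UTR, but only its first block, of 74 bp, lay at the annotated start, from 34583531 to 34583604. The second block, beyond an intron, held 725 bp in OVA lungs and 843 bp in PBS lungs. The peak had a fold enrichment of 5.28 in OVA lungs and 6.34 in PBS lungs, both near the middle of their lists.

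**Figure D2:**
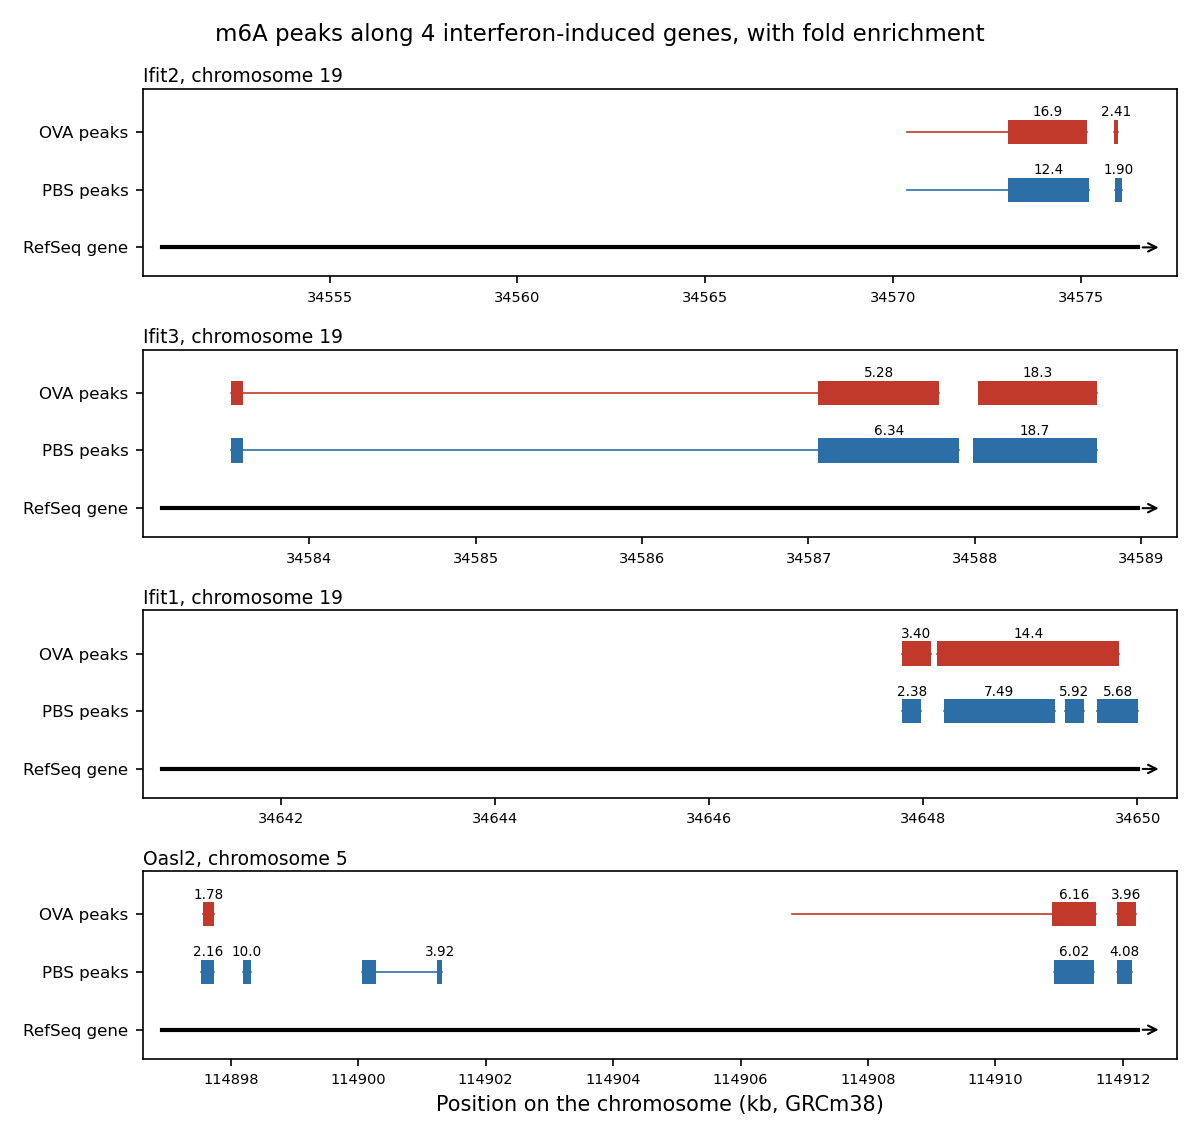
Positions of peaks on Ifit2, Ifit3, Ifit1 and Oasl2 (x axis, kb on GRCm38), with thick bars for exonic blocks, thin lines for introns inside a peak, numbers for the fold enrichment, and a black line with an arrow for the RefSeq gene and its direction of transcription. Toward the 3' end, Ifit1 has a single OVA peak of 14.4 where the PBS list has 3, of 7.49, 5.92 and 5.68. The 2 PBS peaks of Oasl2 without an OVA counterpart lie in the 5' part of the gene.

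The oligoadenylate synthetases Oas2 and Oas3 are activated by double-stranded RNA and make short oligoadenylates, which act as messengers of the antiviral response. Oas2 had no peak on its RefSeq position in either list, whatever gene a peak had been called on. Its neighbour Oas3 had 1 peak in each list, with the region given as an exon and the assigned transcript as a retained intron. In OVA lungs it lay 16131 bp from the 3' end of the gene. The OVA peak, at chr5:120769229-120769439, had a fold enrichment of 4.96 (percentile 45.8). The PBS peak, at chr5:120769259-120769409, lay wholly inside it and had a fold enrichment of 2.44 (percentile 18.6).

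Oasl2 encodes a synthetase-like protein with ubiquitin-like repeats and had the most peaks of the 10 genes, 3 in OVA lungs and 5 in PBS lungs. Both lists had peaks at the end of the gene. The larger had a fold enrichment of 6.16 in OVA lungs and 6.02 in PBS lungs, and the more distal one, which began at chr5:114911905 in both, had 3.96 and 4.08. A weak peak at the 5' end had a fold enrichment of 1.78 in OVA lungs and 2.16 in PBS lungs, at percentiles 6.45 and 13.5. Those 3 pairs were assigned to transcripts with a retained intron.

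Only the PBS list had the remaining 2 Oasl2 peaks. The first, at chr5:114898193-114898312, was 120 bp long and had a fold enrichment of 10 (percentile 72.0). Its region was given as an exon and its assigned transcript as one for nonsense-mediated decay. The second, at chr5:114900062-114901318, had 2 exonic blocks and a fold enrichment of 3.92. Its region was given as the 3' UTR and its assigned transcript as protein-coding. It lay 35 bp upstream of the start of that transcript and 10927 bp from the 3' end of the gene. Region and assigned transcript thus do not describe the same position. The scores of these 2 PBS peaks were modest beside those of the distal Oasl2 peaks: the log10 of the FDR was -6.44 and -11.1, against -101 and -56.9. The region between 114897744 and 114906802 held no OVA peak of the gene.

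Rsad2 encodes viperin, a radical-SAM enzyme that converts a ribonucleotide into a chain terminator of viral RNA synthesis. It had 2 peaks in OVA lungs and 1 in PBS lungs, all assigned to the 3' UTR. Both lists had a peak starting at chr12:26445167, with a fold enrichment of 11.7 in OVA lungs (percentile 75.8) and 4.83 in PBS lungs (percentile 45.6). The OVA peak held 420 bp of exon in 2 blocks and covered all 330 bp of the PBS peak. The additional OVA peak, at chr12:26444330-26444450, had a fold enrichment of 2.29 and a log10 FDR of -2.01, the weakest score among the OVA peaks of the 10 genes. This peak and the PBS peak had been assigned to the pseudogene Gm47799, whose start lay 7631 bp and 8677 bp away, although both had been called on Rsad2.

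Mx1 and Mx2 are genes of dynamin-like GTPases that act against influenza and other viruses, but RefSeq lists both as transcribed pseudogenes on GRCm38. Whether they make a working protein in these mice cannot be read from the lists. Neither list had a peak on chr16:97447035-97462906, the RefSeq position of Mx1, or on chr16:97536081-97560901, that of Mx2. An unlisted gene may lack the mark or may have had too few reads for a peak, and the lists cannot tell these apart.

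By region, 9 of the 13 peaks in OVA lungs (69.2%) and 11 of the 16 in PBS lungs (68.8%) were assigned to the 3' UTR, which held 52.7% of all peaks in each list. Exons other than UTRs held 2 and 3 of them (15.4% and 18.8%, beside 35.7% and 35.9% of all peaks), and the 5' UTR held 2 in each list (15.4% and 12.5%, beside 11.6% and 11.4%). Each peak has 1 region label, also where it spans an intron, as on Ifit2 and Ifit3. By transcript, 7 OVA peaks and 10 PBS peaks of the set were assigned to protein-coding transcripts (53.8% and 62.5%, beside 41.8% and 42.5% of all peaks), and 4 in each list to retained introns (30.8% and 25.0%, beside 20.4% and 20.1%). With so few peaks, the shares by region and by transcript are not read as different from those of the lists. Exonic length exceeded 600 bp for 5 peaks of the set in each list, while 23.6% and 22.9% of all peaks were that long. Those 5 lay in both lists on the same genes, 1 on Oasl2, 1 on Ifit2, 2 on Ifit3 and 1 on Ifit1. The number of peaks per gene was ordinary, with a median of 2 for the 7 genes and for all genes in either list. Assignment to another gene than the one called affected 3 peaks of the set in each list, beside 22.5% and 22.8% of all peaks.

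The annotation in the lists gives GO terms by assigned gene, and thus for 6 of the genes, those with a peak except Ifit2. All 6 carried the term defense response to virus, which 1.06% of the 11211 annotated genes carried. As the genes were chosen by name as interferon-induced effectors, antiviral terms describe that choice and are no result of the peaks. The term response to virus was shared by 5 (all but Isg15), beside 0.455% of the annotated genes. RNA binding was carried by Ifit1, Ifit3, Oas3 and Oasl2, beside 5.14%, and negative regulation of viral genome replication by Oas3, Oasl2, Rsad2 and Isg15, beside 0.223%. General terms were shared as well, such as protein binding by 5 of the 6, which 38.2% of the annotated genes carried.

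As interferon-stimulated response elements are what these genes are known to share, their core, GAAA, any 2 bases, GAAA, was searched on both strands of the RefSeq promoters (GRCm38.p6), from 250 bases before to 50 bases after the start. Promoters of 7 of the 10 genes were given, those of Oas2, Mx1 and Mx2 not. The letters were found in 5 of the 7, Isg15, Oas3, Rsad2, Ifit3 and Ifit1, beside 3.99% of 27025 genes, and were not in the windows of Oasl2 and Ifit2. A match describes the sequence only, and no peak of these RNA data bears on whether a factor binds there. The stretches below are shown to let the shared letters be compared. They run 5' to 3' on the strand of the gene, with capitals for the match or for its reverse complement. They lie at chr4:156200871-156200900 (minus strand) for Isg15, chr5:120777715-120777744 (minus strand) for Oas3, chr12:26456553-26456582 (minus strand) for Rsad2, chr19:34583397-34583426 (plus strand) for Ifit3 and chr19:34640785-34640814 (plus strand) for Ifit1.
Isg15: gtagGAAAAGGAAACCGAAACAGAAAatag
Oas3: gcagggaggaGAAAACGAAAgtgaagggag
Rsad2: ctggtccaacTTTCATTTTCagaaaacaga
Ifit3: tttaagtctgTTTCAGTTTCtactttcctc
Ifit1: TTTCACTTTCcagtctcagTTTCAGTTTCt
Isg15 had 3 matches, each overlapping the next, Ifit1 had 2 separate ones, and Ifit3 had 2, of which the one nearer the start is printed. The match nearest the start ended between 56 bases (Isg15) and 112 bases (Ifit3) before it.

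Upstream and around these effectors, 76 further genes of the interferon system were looked up by the gene on which peaks had been called. Of these, 42 had a peak in both lists, 1 in the OVA list alone, 1 in the PBS list alone and 32 in neither, where 10.8% and 7.22% of all called genes had a peak in the OVA list alone and in the PBS list alone. None of the 10 interferon genes searched, the ligands, had a peak. Of the 9 receptor and kinase genes, 8 had peaks in both lists and Tyk2 in neither. For these genes the highest fold enrichment in each list is given, and the values of a gene may come from different peaks. The highest values among receptors and kinases were those of Ifnlr1, the type III interferon receptor chain (27.9 in OVA lungs and 30.6 in PBS lungs), and Ifnar2, a type I receptor chain (17.3 and 22.6, on a peak assigned to the neighbouring Il10rb).

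Of the 7 transcription factors looked up, 5 had peaks in both lists and 2, Irf1 and Irf7, in neither. Stat2, which acts in a complex with Irf9, had a highest fold enrichment of 37.7 in OVA lungs and 25.2 in PBS lungs, and Irf8, a factor of myeloid cells, had 14.8 and 28.9. For the attachment of Isg15 to its targets, 2 of 5 genes had peaks, the ligase genes Trim25 (90.9 and 54.6) and Herc6 (2.84 and 3.45). The latter PBS value belongs to another peak, assigned to Lancl2 and without an OVA counterpart. Among 3 partner genes, Cmpk2, the nucleotide kinase gene next to Rsad2, had 24.2 and 23.6. The other 2 partners, Eif3e and Sting1, had no called peak.

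Paralogs of the effectors had peaks in 5 of 12 cases, all in both lists: Ifit1bl1, Ifit1bl2, Ifit3b, Oas1c and Oasl1. By the higher of its 2 values, Ifit1bl1 came first, with 24.1 in OVA lungs and 7.40 in PBS lungs, and Ifit1bl2 second, with 15.4 and 18.8 on different peaks. The OVA peak of 15.4 on Ifit1bl2 was assigned to Ifit1bl1 and had no PBS counterpart. The PBS peak of 18.8 was assigned to the pseudogene Cnn2-ps. Ifit3b is a close copy of Ifit3 in the same cluster, and its peak assigned to the 3' UTR had 17.7 in OVA lungs and 13.2 in PBS lungs. Its peaks assigned to the 5' UTR began at the same base but differed in extent. The OVA one had 18.3 over 419 bp of exonic length and the PBS one 4.51 over 807 bp. The PBS peak also covered a stretch where the OVA list had a separate peak of 1.68, so these values are not of the same stretch. Reads that fit both copies may have been placed on either, so the values of Ifit3 and Ifit3b, and those of Ifit1 and its 2 listed relatives, are uncertain to that extent.

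Among 30 other interferon-induced effectors, 21 had peaks in both lists. Eif2ak2, the kinase that stops translation on double-stranded RNA, had 46.7 in OVA lungs and 13.3 in PBS lungs, on a peak assigned to the pseudogene Gm6548. Zc3hav1, an antiviral zinc finger protein that binds RNA, had 15.0 and 38.5 on overlapping peaks of unlike length assigned to Zc3hav1l. These held 569 bp of exonic length in OVA lungs and 150 bp in PBS lungs, with a log10 FDR of -14.9 and -12.8. The peaks of the gene assigned to Zc3hav1 itself had at most 3.17 and 3.08. Ddx60, a helicase, had 2 peaks in the OVA list alone, both weak, with a highest fold enrichment of 2.02. Phf11d had 2 in the PBS list alone, one of 2.60 assigned to Phf11b and one of 1.51 assigned to Phf11d itself. The median fold enrichment over all peaks of the 76 genes was 4.74 in OVA lungs and 4.32 in PBS lungs. Of these peaks, 21 of 100 in OVA lungs and 10 of 88 in PBS lungs had no overlapping peak in the other list, beside 19.4% and 14.5% of all peaks, so the shares were near those of the whole lists.

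Cell type markers were looked up in the same way. Of 10 lung markers, all but Sftpc, that is 9, had peaks in both lists. No overlapping peak in the other list was found for 2 of their 20 OVA peaks and 1 of their 17 PBS peaks. Among all peaks, the shares without one were 19.4% and 14.5%. Of 12 leukocyte markers, 5 had peaks in both lists (Ptprc, Itgam, Cd3e, Siglech and Itgax), and none was in a single list. Of their peaks, 4 of 9 in OVA lungs and 1 of 6 in PBS lungs had no overlapping peak in the other list, beside 19.4% and 14.5% of all peaks, and the OVA and PBS peaks of Siglech lay apart. The eosinophil genes Siglecf, Prg2 and Epx had no peak in either. The lists hold no RNA levels, so the amount of each cell type in the lungs, and its part in the peaks of the effectors, was not tested.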

How the data were processed

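Lung RNA of 3 OVA and 3 PBS mice gave IP and input libraries. The authors used FASTP to clean the reads, HISAT2 to map them to the Ensembl mouse genome, exomePeak to call peaks and ChIPseeker to annotate these. How replicates were combined is not given in the sources used here. Fold enrichment, as deposited, is a ratio (IP over input), and the deposited score is the log10 of the p value or FDR. Deposited starts count from 0 (649 OVA peaks began 1 base before a transcript start, 20 at it) and were raised by 1. Of OVA peaks called on RefSeq protein-coding genes, 97.7% overlapped their GRCm38 position. Other deposited columns are positions, widths, distances and block numbers.

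Peaks were compared by overlap of exonic blocks (minimum 1 bp), and the code was tested on simulated data. Percentiles are ranks within a list. Named were all 10 genes with their peaks, the highest and lowest of these, and per pathway list those with a peak in 1 list alone and the 2 with the highest fold enrichment. Other genes, such as those without a peak and the markers, were named after their values were seen. The gene lists were ligands, receptors and kinases, transcription factors, paralogs, ISG15 conjugation, partners, other effectors, lung markers and leukocyte markers. Of the genes planned for them, 2 are not reported here. Genes and lists were chosen with earlier results of these data known. Alternatives were an FDR under 0.05, a fold enrichment of at least 2, protein-coding transcripts, assigned or called gene alone, and stricter or wider overlap. Peak sequences were not analysed here. Python 3.11.15, numpy 2.4.6, pandas 2.3.3 and matplotlib 3.10.9 were used.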

Additional observations from a re-analysis of the deposited data

How the results depend on the processing

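Of 51 values recomputed under the alternatives, 39 stayed within 1.5 times of the reported value and 12 moved further. With protein-coding transcripts alone, 7 OVA and 10 PBS peaks of the 10 genes were left, 4 genes had an OVA peak, 5 a PBS peak and 4 peaks in both lists, the median OVA fold enrichment was 12.0, and 0 OVA and 1 PBS peak had no counterpart, beside 19.7% and 16.1% of all such peaks. A fold enrichment of at least 2 gave 2 of 12 OVA and 3 of 15 PBS peaks without a counterpart, beside 19.5% and 14.4% of all such peaks. The assigned gene alone gave 0 OVA peaks without one, with 6 genes in the OVA list, 5 in the PBS list and 5 in both. An overlap of 50% of both peaks left 4 of 16 PBS peaks without a counterpart, beside 28.3% of all PBS peaks. No peak of the 10 genes had both the same start and the same end in the other list, so 13 OVA and 16 PBS peaks lacked a counterpart by that rule, as did 89.7% and 89.3% of all peaks. No paired analysis was possible because the lists give 1 value per peak and group, with none for single mice. The lists give no depth, so a missing peak cannot be read as a missing mark.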
